A study of Rattus norvegicus with 100 samples.

Results

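The measurement described here is the uterus of immature female rats 72 h into an OECD uterotrophic assay with ethinyl estradiol (EE), a synthetic estrogen. It was chosen by sample title: the 5 arrays titled EE_72h_Uterus were set against the 5 titled Control_72h_Uterus, 10 of the 100 arrays of the series. Titles carry the numbers 79, 81, 82, 83 and 84 for EE and 73, 75, 76, 77 and 78 for control, and the arrays are named by these below. Both groups are described as juvenile female Rattus norvegicus in the same assay. No strain, dose, route, number of doses or vehicle is given in the sources used here, and the controls are named only as controls. RNA of the samples titled uterus was read on Affymetrix RAE230A arrays from 5 µg of total RNA per sample. The labels do not say that each array is a separate animal, so each p-value speaks only for the spread among the arrays, which may be technical. The other 60 uterus arrays cover 2 to 48 h, and the 10 arrays each of 48, 24 and 4 h are used below to date the changes.

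The uterotrophic assay rests on the growth of an immature uterus under estrogen. Estrogen acts through estrogen receptors, which are ligand-activated transcription factors that bind DNA directly or act with other factors such as AP-1, the Fos and Jun dimer. In the rodent uterus an early phase of transcription and fluid uptake is followed by division of the luminal epithelium, entry of leukocytes and secretion into the lumen.

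A value here is the deposited linear intensity of a gene's brightest probe set. A change is the difference of group means of log2(intensity + 30.4), EE minus control, given ± its standard error (SE) from a fit of all 70 uterus arrays, with 5 arrays per group unless a blank cell is named. Adjusted p-values are from limma with the Benjamini-Hochberg method over all genes tested, with 0.05 as the threshold for passing. On this scale the change of a dim gene is understated.

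The arrays of both groups carried uterine signatures: 13 of 15 uterus marker genes had a value on all 10 arrays, and 7 of 12 pituitary hormone genes were blank on all 10. The groups differed in technical measures. The share of blank probe sets was 39.2% ± 2.38 on EE arrays and 36.3% ± 0.858 on control arrays (SD, n = 5 each), and the median intensity was 98.4 ± 2.30 against 103 ± 1.07. The log2 difference between 3′ and 5′ control probe sets of Actb was 0.317 ± 0.144 in EE and 0.668 ± 0.268 in control, and that of Gapdh 0.283 ± 0.117 and 0.519 ± 0.148. By two-sided exact permutation tests these gave adjusted p-values of 0.0496, 0.0397, 0.0496 and 0.0496 over 5 measures, where 0.00794 is the smallest unadjusted p possible. EE array 84 had the largest residual spread of all 70 uterus arrays. The part of these measures in the results was not tested. No pair of arrays held identical values.

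On the deposited scaling, a majority of the genes tested differed between EE and control arrays, most of them by little. Of 6767 genes tested, 4073 passed (60.2%), 1580 higher with EE (23.3%) and 2493 lower (36.8%). Of those that passed, 74.4% changed by less than 1.5-fold. Genes that rose at least 2-fold numbered 188 (2.78%) and genes that fell at least 2-fold 95 (1.4%). The groups did not overlap for 2744 genes (40.5%). The median change over all genes tested was −0.07. Centring each array on its median moved this median by 0.111, and the split among genes that passed turned from 38.8% higher and 61.2% lower to 56.3% higher and 43.7% lower. Of the 4073 genes, 3308 passed under both scalings. They kept their direction, but a shift of this size could hardly turn a gene that passes both times. Small changes are therefore read below against the median of all genes, and a count of members against the 23.3% that rose and the 36.8% that fell.

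Among the genes tested, the one with the largest rise at 72 h was S100g. It encodes calbindin-D9k, a calcium-binding protein long used as a marker of estrogen action in rat uterus. Its intensities were 86.2, 88.7, 90.4, 59.1 and 74.3 on control arrays 73 to 78 and 1882, 1891, 2018, 1723 and 2467 on EE arrays 79 to 84. It rose by 4.20 ± 0.14, an 18.4-fold difference on this scale (adjusted p = 2.09e-35). No EE array came near the controls. Ccl11 encodes eotaxin, the chemokine that attracts eosinophils. It read 50.6, 36.5, 47.9, 24.3 and 52.8 in control and 1025, 1059, 1586, 949 and 1312 with EE, and rose by 4.05 ± 0.17 (adjusted p = 9.66e-29). Kap, the kidney androgen-regulated protein, read 85.4, 102, 163, 207 and 123 in control and 2303, 2416, 2147, 2432 and 3450.1 with EE, and rose by 3.98 ± 0.24 (adjusted p = 1.06e-20). The groups of both genes were far apart. The 12 largest rises were picked among genes whose groups do not overlap, so separate groups follow from the choice. Others of the 12 largest rises were Sprr1a (3.33 ± 0.45), a protein of the cornified envelope, and Ceacam1 (3.27 ± 0.13), an epithelial adhesion molecule. They also took in the desmosomal protein Perp (3.05 ± 0.35), the keratins Krt19 (2.93 ± 0.23) and Krt10 (2.88 ± 0.53), the hyaluronan-binding Tnfaip6 (2.85 ± 0.19), the immunoglobulin transporter Pigr (2.63 ± 0.12), the epithelial transcription factor Elf3 (2.56 ± 0.14) and Plet1 (2.51 ± 0.15).

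**Figure D1:**
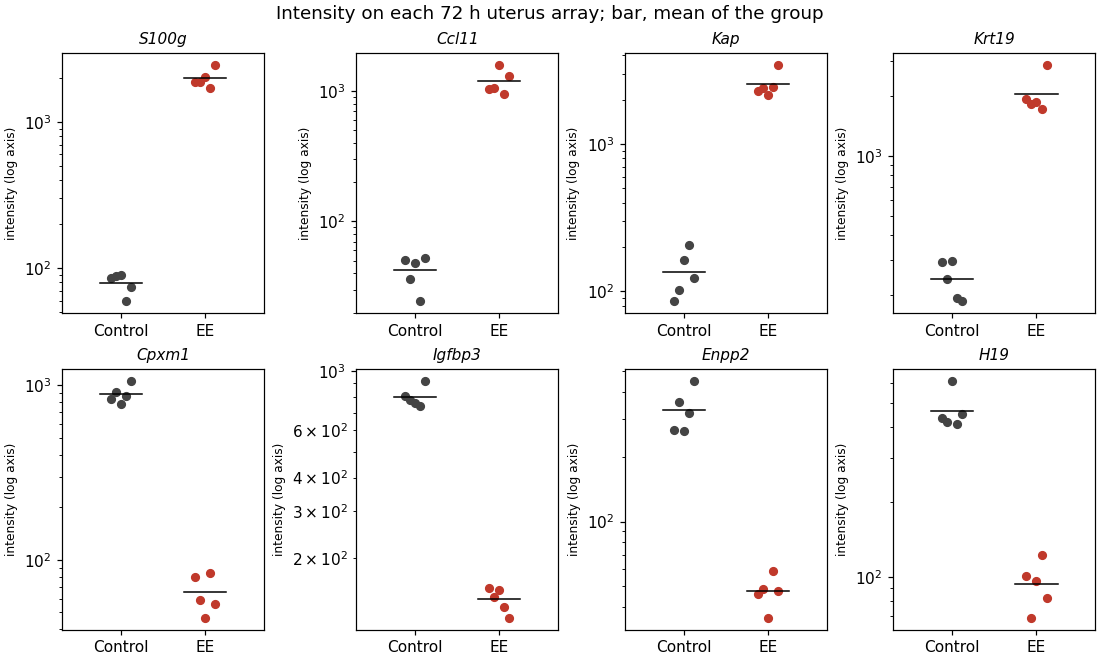
Deposited intensity (log axis) on each of the 5 control and 5 EE arrays for 4 of the largest rises and 4 of the largest falls, with the group mean as a bar. The genes were picked among those whose groups do not overlap, so the 2 groups are separate in every panel by choice. S100g, for example, lies between 59.1 and 90.4 in control and between 1723 and 2467 with EE.

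Promoters of the largest rises and falls, which were chosen by the size of their change, were searched for 3 motifs. The window was the 250 bases before to 50 after the RefSeq start (build GRCr8), on both strands, for the estrogen response element (GGTCA, any 3 bases, TGACC), the AP-1 site TGANTCA and the GC box GGGGCGGGG. Of the 12 largest rises, 9 had a window, and 4 of them held an AP-1 site. Of the 12 largest falls 7 had a window, and none of the 7 held one. The site occurred in 7.33% of all 27457 windows and in 4.96% of the 5691 windows of genes tested. Among all genes that passed, 6.86% of 1326 windows of genes that rose and 4.01% of 2095 windows of genes that fell held it. For changes of at least 2-fold it was 12.3% of 146 windows of genes that rose and 6.76% of 74 of genes that fell. The estrogen response element occurred in 7 of the 27457 windows and in none of these largest rises or falls. The GC box occurred in 10.4% of all windows, in 21.9% of those of genes tested, in 15.1% of those of genes that rose at least 2-fold and in 18.9% of those of genes that fell at least 2-fold, and in 0 of the 9 windows of the largest rises and 2 of the 7 of the largest falls. A match describes letters only, factor binding was not measured, and a part of AP-1 in these rises was not tested. The 4 windows are shown as the bases upstream of the start, 5′ to 3′ on the gene's strand. Each holds a match to TGANTCA, in capitals, but the letters differ. Sprr1a, Perp and Tnfaip6 held TGAGTCA and Plet1 held TGATTCA. The search left the central base open, so the counts and shares above take in any central base. They lie at chr2:180752626-180752875 on the minus strand for Sprr1a, and on the plus strand at chr1:15361534-15361783 for Perp, chr8:59738389-59738638 for Plet1 and chr3:56911148-56911397 for Tnfaip6.
Sprr1a: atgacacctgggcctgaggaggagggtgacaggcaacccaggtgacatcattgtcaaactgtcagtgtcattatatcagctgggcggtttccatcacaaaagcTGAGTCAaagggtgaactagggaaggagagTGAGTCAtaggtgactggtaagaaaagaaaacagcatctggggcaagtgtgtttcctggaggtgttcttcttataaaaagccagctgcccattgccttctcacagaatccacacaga
Perp: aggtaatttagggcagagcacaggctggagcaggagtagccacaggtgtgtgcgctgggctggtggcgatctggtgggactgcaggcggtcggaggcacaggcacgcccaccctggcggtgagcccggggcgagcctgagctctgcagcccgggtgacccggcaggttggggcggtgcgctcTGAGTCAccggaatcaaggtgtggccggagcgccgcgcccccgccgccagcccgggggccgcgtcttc
Plet1: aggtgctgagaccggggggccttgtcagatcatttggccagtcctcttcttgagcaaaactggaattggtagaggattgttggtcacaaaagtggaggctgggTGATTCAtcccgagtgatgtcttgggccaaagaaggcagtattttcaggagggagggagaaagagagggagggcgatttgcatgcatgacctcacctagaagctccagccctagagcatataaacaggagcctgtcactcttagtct
Tnfaip6: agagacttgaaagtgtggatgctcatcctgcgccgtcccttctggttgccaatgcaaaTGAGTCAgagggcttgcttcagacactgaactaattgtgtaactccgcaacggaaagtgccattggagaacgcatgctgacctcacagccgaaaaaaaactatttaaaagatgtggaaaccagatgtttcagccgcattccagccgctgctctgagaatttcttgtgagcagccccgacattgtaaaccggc
Sprr1a held a match to the AP-1 site 147 and 117 bases before its start, Perp 68, Plet1 147 and Tnfaip6 192 bases before. Fos, a subunit of the factor that gives this site its name, read 20.5, 18.6, 12.3, 17.6 and 11.8 in control and 35.5, 65.9, 91.1, 33.3 and 112 with EE, and rose by 1.003 ± 0.19 (adjusted p = 9.25e-06). Its groups did not overlap, although the EE arrays ranged widely. Of the other Fos and Jun genes tested, Junb rose by 0.47 ± 0.15 (adjusted p = 0.00663, or 0.0942 with EE array 84 and control array 75 both left out), while Jun changed by −0.17 ± 0.10 (adjusted p = 0.124) and Fosl1 by −0.03 ± 0.11 (adjusted p = 0.799) and did not pass. Of the 16 immediate-early genes tested 4 rose, 3 fell and 9 did not pass, with a median of −0.09, and 5 rose and 2 fell after centring of arrays. Klf4, an epithelial transcription factor, rose by 1.501 ± 0.18, and Egr1, a zinc finger factor, fell by 0.66 (SE 0.15).

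Several genes with high intensities on the EE arrays had blank cells in control and could not be tested. C3, complement component 3, read 3212, 3377, 3379, 3270.4 and 4871 on the EE arrays, and only control arrays 73 and 77 had a value, at 38.95 and 31.2. Of 10411 genes, 71 had values on all EE arrays and on no control array, and 103 on all control arrays and no EE array. The share of blank probe sets was itself higher on EE arrays, 39.2% against 36.3%, and its part in these counts was not tested. Among the 71 were Mmp7 (matrilysin, an epithelial protease) at 1900.00, 2029, 2219, 1907 and 3065, Cuzd1 at 1573, 2152, 1918, 2274 and 3157, Dmbt1 (a mucosal defence protein) at 1124, 1129, 1297, 1345 and 1302 and Muc4 (a membrane mucin) at 404, 503, 549, 432 and 555. The 71 were picked by this pattern of blanks, so the pattern in these 4 adds no evidence. Why cells are blank is not given, and a blank is not read here as absence. The highest of the 103 was Penk, the enkephalin precursor, at 272, 262, 306, 311 and 276 on control arrays. No fold is given for genes without values in a group. Aqp5, a water channel, read 195, 263, 154, 179 and 179 in control, and EE arrays 81 and 83 alone had a value, at 13.1 and 18.9.

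Of 28 listed estrogen-responsive genes on the array, 17 were tested, 12 rose and 1 fell, with a median change of 0.77 beside −0.07 over all genes. Inhbb, the activin beta B subunit, rose by 2.08 ± 0.12, and Igf1, the estrogen-induced growth factor, by 1.05 ± 0.09 from 427, 482, 394, 356 and 300.03 to 782, 838, 906, 801 and 847. The progesterone receptor gene Pgr rose by 0.49 ± 0.11 (adjusted p = 0.00016), but its groups overlapped, at 151, 81.7, 131, 169 and 101 in control and 173, 185, 229, 174 and 169 with EE. Vegfa was the member that fell, by 1.32 (SE 0.12), from 182, 214, 144, 180.02 and 139 to 49.2, 59.6, 49.3, 44.9 and 48.0. The receptor gene Esr1 changed by 0.20 ± 0.12 (adjusted p = 0.132) with control array 75 blank, and its groups overlapped; it passed after centring of arrays (adjusted p = 0.0204), with blanks filled at the 10th percentile (0.0075) and without control array 73 (0.0341). Ccnd1, cyclin D1, changed by 0.02 ± 0.08 (adjusted p = 0.825). Oxtr was blank on all 10 arrays.

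Epithelial genes rose together. Of 19 simple epithelium markers tested, 16 rose and 1 fell, with a median of 0.86. Krt8, a keratin of luminal and glandular epithelium, read 296, 322, 348, 284 and 280.2 in control and 1481, 1677, 1671, 1244 and 2128 with EE, and rose by 2.29 ± 0.12. Krt7 rose by 2.45 ± 0.35 with control array 77 blank, and Prom1, a protein of apical protrusions, by 2.25 ± 0.11. Cd24 rose by 1.98 ± 0.11, the mucin Muc1 by 1.60 ± 0.14 and the junction protein Cldn7 by 1.24 ± 0.12. Krt18 rose less, by 0.44 ± 0.11, with overlapping groups. The exception was Foxa2, a glandular transcription factor, at −0.37. The summed intensity of the 23 markers on the array was 4236 to 4926 in control and 13101 to 18291 with EE. In a bulk tissue a larger share of a cell type and more RNA per cell cannot be told apart.

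Genes of stratified epithelium rose, with a wide spread between EE arrays. Of 24 on the array, 9 could be tested, and 7 of these rose, none fell and the median was 1.86. Krt10 read 35.2, 34.8, 28.4, 29.5 and 37.9 in control and 487, 386, 1574, 216 and 230.4 with EE, where array 82 stood above the rest. Sprr1a read 251, 139, 153, 124 and 121 and 2481, 1727, 2296, 815 and 2396, and Dsp (desmoplakin) 159.5, 142, 211, 122 and 179 and 1158, 859.6, 1395, 499 and 913. On EE array 83 these 3 genes were lowest. Krt14 read 3322, 2471, 2881, 858 and 3410.3 with EE, and control arrays 76 and 78 alone had values, at 124 and 86.2. Krt6c had a value on all EE arrays, at 3337, 2658, 2979, 1297 and 3819, and on no control array. However, keratin 6 copies are close in sequence and may share a probe set. The list summed to 315 to 2084 in control and to 6013 to 18547 with EE, lowest on array 83 with a next value of 12457. However, 5 of its 24 genes had a value on all 10 arrays, and a blank cell adds nothing to a sum. The part of blank control cells, such as those of Krt14 and Krt6c, in this gap was not tested. Krt5 rose by 1.86 ± 0.76 (adjusted p = 0.0307) with control array 77 blank, and without any of EE arrays 79, 82 or 84 or control arrays 73 or 75, or under quantile normalization, its adjusted p lay above 0.05. Krt15 changed by 1.26 ± 0.78 and did not pass (adjusted p = 0.157), but passed with the 2 groups of 72 h fitted alone (adjusted p = 0.00458). Which part of the reproductive tract the tissue took in is not given in the labels, and these genes' part in the other results was not tested.

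Macrophage genes rose, and complement genes moved in both directions. Of 12 macrophage markers tested, of 19 on the array, 12 rose, with a median of 1.31, and the list summed to 1860 to 2560 in control and 6231 to 9917 with EE. Lyz2, lysozyme, rose by 2.04 ± 0.15 from 658, 474, 566, 499 and 557 to 1865, 2598, 2013, 2264 and 3227. Fcer1g, a signalling chain of Fc receptors, rose by 1.71 ± 0.14, Cd14, the lipopolysaccharide co-receptor, by 1.47 ± 0.12, and Csf1r, the macrophage growth factor receptor, by 1.04 ± 0.09. Of 13 complement genes 7 rose and 3 fell. Cd55, a complement inhibitor, rose by 2.38 ± 0.21, and Clu, clusterin, fell by 1.55 (SE 0.12). C1qa, C1qb and C1qc, the subunits of complement C1q, belong to both lists and rose by 1.26 ± 0.12, 1.28 ± 0.11 and 1.08 ± 0.12. Of the 21 eosinophil, neutrophil and mast cell genes 16 were blank on all 10 arrays, and of 3 tested Lcn2, which epithelium also makes, rose. This list summed to 116 to 148 in control and 165 to 326 with EE. Of 20 lymphocyte genes 9 were blank on all 10 arrays, and of 3 tested none passed, while the list summed to 163 to 238 in control and 295 to 596 with EE. The sums of both lists did not overlap between the groups. However, a blank cell adds nothing to a sum, and few members had a value on all 10 arrays. These were 3 lymphocyte genes, none of which passed, and 2 genes of the eosinophil, neutrophil and mast cell list. The part of blank control cells in the gap between the sums was not tested. Of 13 chemokine and cytokine genes tested 5 rose and 3 fell, with a median of −0.02, and 6 rose and 1 fell after centring of arrays. Besides Ccl11, Cxcl14, a chemokine of epithelia, rose by 2.13 ± 0.23, and Tgfb3 fell by 0.63 (SE 0.08).

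Interferon-response genes rose as a list: 17 of 22 rose and 1 fell, with a median of 0.88. Mx1, an antiviral GTPase, read 41.4, 29.2, 38.9, 46.4 and 39.7 in control and 195, 279, 189, 266 and 283 with EE, and rose by 1.96 ± 0.13. Irf7, a regulator of interferon genes, rose by 1.48 ± 0.11, and Psmb8 and Psmb10, subunits of the immunoproteasome, by 1.80 ± 0.20 and 1.31 ± 0.11. Ifitm1 was the member that fell, at −0.89. Of 18 antigen presentation genes 12 rose and 2 fell. B2m, the light chain of MHC class I, rose by 1.11 ± 0.11, and the class II loading gene RT1-DMa by 0.92 ± 0.11. The class II gene RT1-Db1 stood at −0.59. RT1 genes are near-identical families whose probe sets may share signal.

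**Figure D2:**
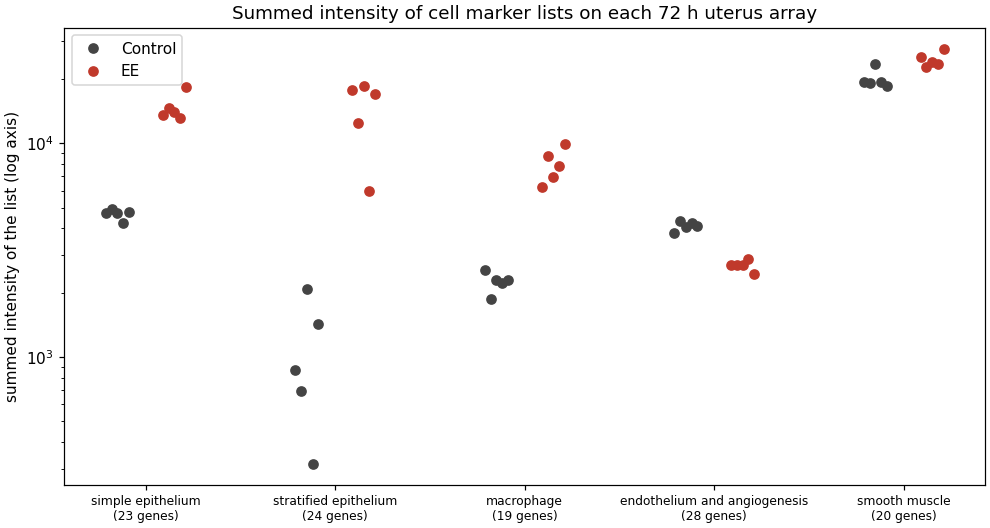
Summed intensity (log axis) of 5 cell marker lists on each of the 5 control and 5 EE arrays, with the number of genes on the array under each name. Sums of simple epithelium, stratified epithelium and macrophage genes were higher on every EE array. A blank cell adds nothing to a sum. Genes with a value on all 10 arrays were 17 of 23, 5 of 24 and 12 of 19 in these lists. Sums of endothelium and angiogenesis genes were lower, and those of smooth muscle overlapped.

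Mitosis genes rose, and genes of the step into division moved in both directions. Of 12 mitosis genes tested, 12 rose, with a median of 1.43. Cdk1, the mitotic kinase, read 60.2, 58.6, 49.3, 38.3 and 73.9 in control and 271, 343, 267, 316 and 276 with EE, and rose by 1.92 ± 0.16. Cks2, its binding partner, rose by 2.23 ± 0.18, and Ube2c, an enzyme of mitotic exit, by 1.54 ± 0.14. Mki67, the Ki-67 antigen, rose by 1.60 ± 0.21 with control array 77 blank. Of 18 DNA replication genes 11 rose and none fell, with a median of 0.32; helicase subunits Mcm6 and Mcm3 rose by 0.82 ± 0.13 and 0.77 ± 0.11. Of 13 G1 genes 2 rose and 7 fell. Cdkn1c, the inhibitor p57, fell by 1.28 (SE 0.09) from 302, 353, 308, 369 and 395 to 141, 121, 121, 146 and 93.4. Ccnd2, cyclin D2, fell by 1.17 (SE 0.10) and Cdkn1b, the inhibitor p27, by 0.67 (SE 0.12). With all probe sets of a gene averaged, Cdkn1b did not pass. Other inhibitors went the opposite way. Cdkn2c, the inhibitor p18, rose by 0.64 ± 0.13 (adjusted p = 1.93e-05). Cdkn1a, the inhibitor p21, read 127, 134, 182, 68.05 and 151 on the EE arrays and was blank on all control arrays.

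Ribosome biogenesis genes were below control at 72 h: of 27 tested 20 fell and 1 rose, with a median of −0.31, and 13 fell and 2 rose after centring of arrays. Nolc1, a nucleolar protein, fell by 0.81 (SE 0.08) from 178, 229, 213, 219.9 and 183 to 100.02, 95.7, 101, 112 and 107. Gnl3, nucleostemin, fell by 0.56 (SE 0.07) from 176, 182, 185, 201 and 142 to 128, 109.6, 122, 95.5 and 96.9. Both genes had groups that did not overlap. Of 30 cytosolic ribosomal protein genes none rose and 5 fell, but after centring 4 rose and 2 fell, and after quantile normalization 18 fell.

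The largest fall among the genes tested was that of Cpxm1, a carboxypeptidase-like secreted protein. It read 832, 917, 785, 869.7 and 1055 in control and 79.8, 59.3, 46.6, 84.4 and 55.6 with EE, and fell by 3.28 (SE 0.16, adjusted p = 8.14e-26). Igfbp3, the main carrier of insulin-like growth factors, read 806, 782, 763, 739.8 and 917 and 154, 143, 152, 131 and 119, and fell by 2.29 (SE 0.12, adjusted p = 3.78e-24). Enpp2, autotaxin, read 267, 359, 265, 319 and 449.9 and 46.2, 48.5, 35.6, 58.9 and 47.6, and fell by 2.20 (SE 0.12). The control and EE arrays of these 3 genes did not overlap, which the choice of the largest falls required. H19, an imprinted non-coding RNA, fell by 1.995 (SE 0.14) and its imprinted neighbour Igf2 by 1.51 (SE 0.11) with EE array 84 blank. Gpc3, a heparan sulfate proteoglycan, fell by 1.78 (SE 0.12), also with EE array 84 blank. Others of the 12 largest were Asgr2 (−2.10 ± 0.12), the sulfotransferase Sult1a1 (−1.66 ± 0.16), Gfra2 (−1.64 ± 0.09), Inmt (−1.62 ± 0.16) and Dpp6 (−1.57 ± 0.10). Thrsp, a lipogenic gene, stood at −1.65 ± 0.23, with control array 73 at 542 and the other controls between 80.2 and 171, and at −1.27 without that array. The summed adipocyte markers were lower too: the 11 on the array summed to 579 to 1940.0 in control, highest on array 73, and to 325 to 544 with EE. Of these 11, 3 had a value on all 10 arrays, and a blank cell adds nothing to a sum. Of the 4 that were tested 2 fell and none rose. Lpl, lipoprotein lipase, was among those that fell, by 1.05 (SE 0.20). Of the 7 not tested, 1 was blank on all 10 arrays. Without control array 73, of 3 tested 1 fell. Their part in the value of Thrsp was not tested.

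Insulin-like growth factor genes moved in both directions: of 16, 4 rose and 8 fell, with a median of −0.32. The share that rose was close to the 23.3% over all genes, and the share that fell was above the 36.8% over all genes. Besides Igf1, Igfbp2 rose by 2.30 ± 0.25 with control array 77 blank. The receptor gene Igf1r fell by 0.78 (SE 0.11).

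Genes of the endothelium and angiogenesis list were mostly lower: of 22 tested 16 fell and 2 rose, with a median of −0.62. The list is not limited to endothelial markers and takes in signalling genes such as Vegfa and Adm. It summed to 3809 to 4323 in control and 2455 to 2861 with EE. Kdr, the main receptor of vascular endothelial growth factor, fell by 0.99 (SE 0.11) from 169.9, 212, 194, 175 and 191 to 60.2, 75.1, 87.3, 101 and 78.1. Emcn, endomucin, fell by 0.98 (SE 0.08), while Adm, adrenomedullin, rose by 1.03 ± 0.13. Pecam1 changed by −0.20 ± 0.11 and did not pass (adjusted p = 0.103), but passed without control array 73 (adjusted p = 0.0462).

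Developmental signalling genes were mostly lower. Of 27 activin, BMP and TGF-beta genes 19 fell and 1 rose, with a median of −0.34; Tgfbi fell by 1.53 (SE 0.12), the activin antagonist Fst by 1.25 (SE 0.10) and Id3, a BMP target, by 1.21 (SE 0.10). The member that rose was Inhbb. Of 20 Wnt genes 13 fell and 2 rose. The antagonist Sfrp1 fell by 1.10 (SE 0.08) and the feedback target Axin2 by 0.96 (SE 0.11), and Sfrp4 rose by 1.18 ± 0.11. Of 12 patterning genes 9 fell and 1 rose, with a median of −0.57. Msx1 fell by 1.04 (SE 0.14) from 426, 447, 481, 433 and 494 to 228, 224, 168, 177 and 245, and Hoxa10, which patterns the uterus, by 0.73 (SE 0.09).

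**Figure D3:**
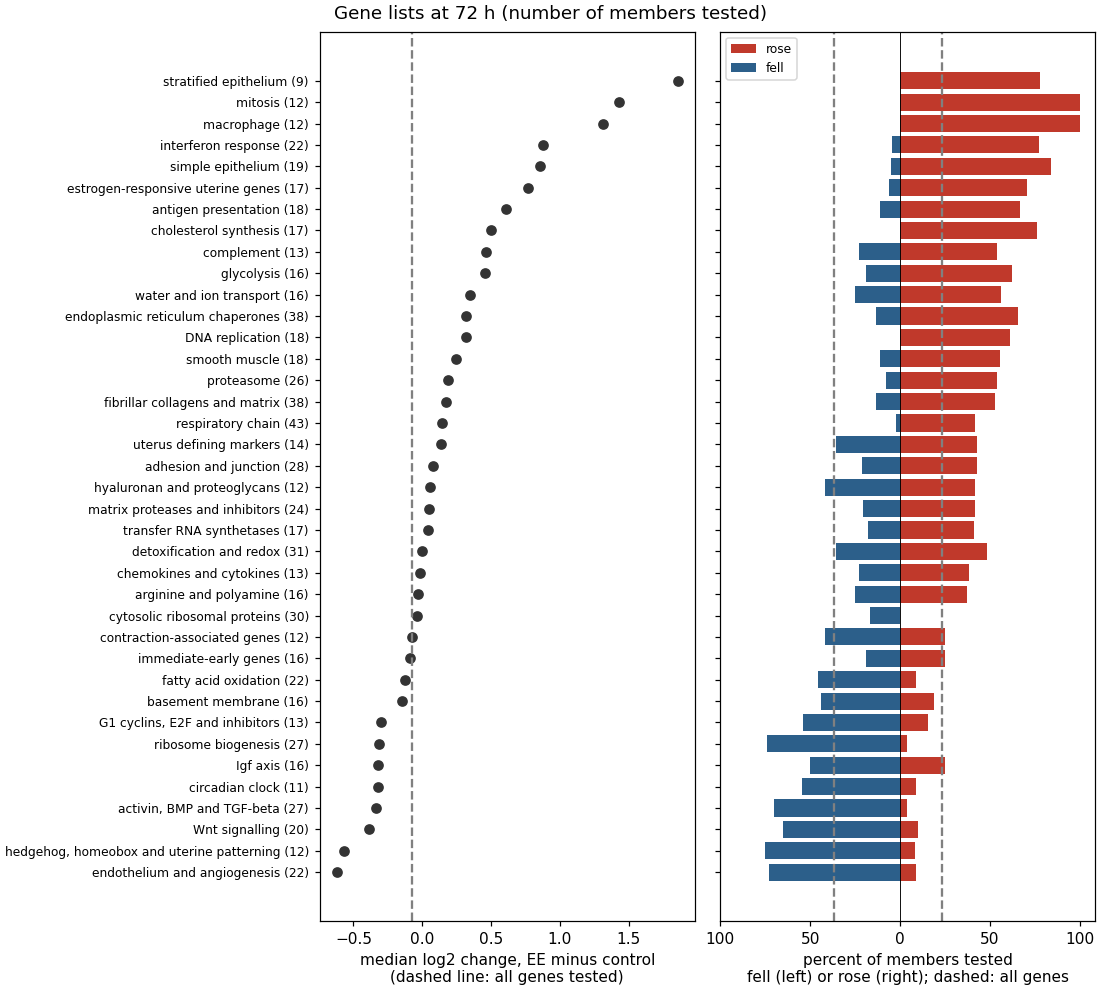
Left, median log2 change (EE minus control) of each gene list with at least 9 members tested; right, the percent of members tested that fell (left) or rose (right). Dashed lines give the same over all 6767 genes tested, a median of −0.07 with 23.3% risen and 36.8% fallen. Stratified epithelium, mitosis and macrophage lists have the highest medians, and the endothelium and angiogenesis list the lowest.

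Muscle and matrix genes split within their lists. Of 18 smooth muscle genes 10 rose and 2 fell, with 6 and 3 after quantile normalization. Actg2, the enteric smooth muscle actin, read 1233, 1071, 1699, 1044 and 1115 in control and 2672, 2134, 2493, 2409 and 3432 with EE and rose by 1.08 ± 0.11. Acta2, the vascular form, changed by −0.01 ± 0.07 (adjusted p = 0.879) and Myh11, smooth muscle myosin, by 0.07 ± 0.08 (adjusted p = 0.455). Gja1, the gap junction protein connexin 43, rose by 1.34 ± 0.10, while its other probe set changed by −0.02 and did not pass. Of 38 fibrillar collagen and matrix genes 20 rose and 5 fell. Fn1, fibronectin, rose by 0.86 ± 0.10 and Col12a1 by 1.04 ± 0.14, while Postn, periostin, fell by 1.13 (SE 0.15) with overlapping groups. Col1a1 changed by 0.09 ± 0.08 and did not pass (adjusted p = 0.341), while its other probe set rose by 0.24 ± 0.07 (adjusted p = 0.0051), and it passed after centring of arrays (adjusted p = 0.0407). Among proteases and inhibitors, Timp1 rose by 1.32 ± 0.08 and Timp3 fell by 1.37 (SE 0.09).

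Metabolic genes also moved by group. Of 17 cholesterol synthesis genes 13 rose and none fell, with a median of 0.50; Idi1 rose by 1.65 ± 0.16 and Fdps by 1.27 ± 0.16, enzymes of the isoprenoid steps. Of 16 glycolysis genes 10 rose and 3 fell. Ldha, the lactate dehydrogenase A chain, rose by 1.37 ± 0.09 from 635, 571, 563, 582 and 489 to 1512, 1566, 1326, 1282 and 1943, and Ldhb, the B chain, fell by 0.78 (SE 0.07). Of 38 endoplasmic reticulum genes 25 rose and 5 fell, among them Ssr4 of the translocon at 0.91 ± 0.08, while the chaperone Hspa5 changed by −0.08 ± 0.12 (adjusted p = 0.6). Of 31 detoxification and redox genes 15 rose and 11 fell. Gpx1, glutathione peroxidase, rose by 1.45 ± 0.08, Gsr, glutathione reductase, by 1.30 ± 0.08, and Gstm5, a glutathione transferase, fell by 1.37 (SE 0.17). Ass1, which makes argininosuccinate, rose by 2.47 ± 0.16. Of 43 respiratory chain genes 18 rose and 1 fell, but 30 rose and 1 fell after centring and 12 rose and 9 fell after quantile normalization.

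The EE effect at 72 h was compared with that at 48 h, each against its own controls; EE against control passed for 57.1% of genes at 48 h. Of 6679 genes 34 differed (0.509%), 15 more positive at 72 h and 19 more negative, or 19 and 12 after centring of arrays, and 876 had an unadjusted p under 0.05. C1qa changed by 0.04 ± 0.12 at 48 h and 1.26 ± 0.12 at 72 h, a difference of 1.22 ± 0.16 (adjusted p = 1.95e-06). C1qc gave 0.08 ± 0.12 and 1.08 ± 0.12, a difference of 1.002 ± 0.16 (adjusted p = 0.000164). Sat1, which acetylates polyamines, differed by 0.75 ± 0.13, the folate receptor Folr1 by 0.83 ± 0.16, the matricellular Ccn3 by 0.83 ± 0.15 and the protease Htra3 by 0.61 ± 0.10. Dpp6 differed by −0.78 ± 0.14 and Khdrbs1, an RNA-binding protein, by −0.43 ± 0.08, both more negative at 72 h. The other probe set of Khdrbs1 changed by −0.02 ± 0.07 at 72 h and did not pass. The count was 9 with the 4 groups of this comparison fitted alone, 8 more positive and 1 more negative, where Folr1, Dpp6 and Khdrbs1 did not pass. It was 19 without EE array 84, 18 without control array 76 and 53 without control array 78.

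EE against control passed for 59.3% of genes at 24 h. Against that time, 2107 of 6657 genes differed (31.7%), 867 more positive and 1240 more negative at 72 h; after centring of arrays it was 1033 and 988. Of the 12 macrophage genes tested 12 differed, and of the 18 DNA replication genes 15. Ccl11 went from 1.24 ± 0.17 at 24 h to 4.05 ± 0.17, a difference of 2.81 ± 0.24 (adjusted p = 2.44e-13). Cpxm1 went from −0.65 ± 0.16 to −3.28 ± 0.16, a difference of −2.63 ± 0.23 (adjusted p = 2.44e-13), and H19 from 0.06 ± 0.14 to −1.995 ± 0.14 (adjusted p = 3.15e-12). Mcm6 was less raised at 72 h, by −0.80 ± 0.19 (adjusted p = 0.000851), from 1.62 ± 0.13 at 24 h. For Cdk1 the difference was −0.08 ± 0.22 and did not pass (adjusted p = 0.831).

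EE against control passed for 58.1% of genes at 4 h. Against that time, 3542 of 6537 genes differed (54.2%), 1668 more positive and 1874 more negative at 72 h, or 2108 and 1533 after centring of arrays, and 27 of 27 ribosome biogenesis genes were among them. Their median change was 0.92 at 4 h and −0.31 at 72 h. Gnl3 went from 1.63 ± 0.07 to −0.56 ± 0.07, a difference of −2.19 ± 0.10 (adjusted p = 2.31e-26), and Nolc1 from 1.13 ± 0.08 to −0.81 ± 0.08, a difference of −1.94 ± 0.11. Rasd1, a small GTPase, and Gadd45g, a growth arrest gene, were raised at both times but less at 72 h, by −2.69 ± 0.15 and −2.85 ± 0.17. Ceacam1 was at 0.06 ± 0.13 at 4 h, and its difference was 3.21 ± 0.19 (adjusted p = 6.35e-22).

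**Figure D4:**
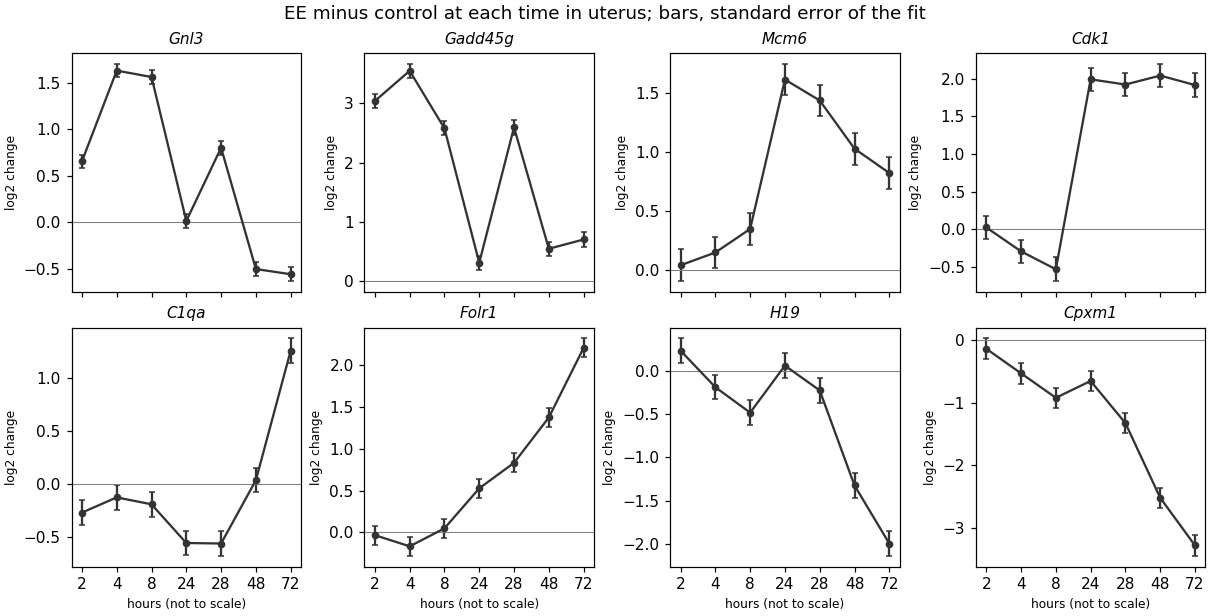
Log2 change (EE minus control, with the standard error of the fit as bars) at 2 to 72 h in uterus for 8 genes, times not to scale. Gnl3 and Gadd45g are highest at 4 h, Mcm6 at 24 h, and C1qa, Folr1, H19 and Cpxm1 are farthest from 0 at 72 h, while Cdk1 stays near 2 from 24 h on.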

How the data were processed

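Expression was read on 100 RAE230A arrays; the authors deposited linear intensity values per probe set, per the file headers, while how they were summarised and scaled, and why some are blank (37.2% of cells), is not given in the sources used here. Array medians at 72 h lay between 94.6 and 103.9; no count of depth exists for arrays, and their number limits precision. Of 15923 probe sets 12783 belonged to a single gene, and the brightest over uterus arrays stood for each of 10411 genes. Values became log2(intensity + 30.4), 30.4 being the 10th percentile of all values. A gene was tested with at least 3 of 5 values in each group.

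Means of 14 uterus groups were fitted to 70 arrays with R 4.3.3 and limma 3.58.1 (squeezeVar), two-sided, with Benjamini-Hochberg adjustment. The procedure was tested on simulated data. Tables and figures used Python 3.11.15 and pandas 2.3.3. Gene names came from the platform table, matched to RefSeq by gene ID for 12748 probe sets.

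The members and the 47 gene lists were chosen with earlier results of these data known. Named genes were the 12 largest rises and 12 largest falls (passed, groups apart, higher mean above the median of all genes), up to 4 members of each list and 8 genes of each difference with the smallest adjusted p, up to 8 genes with values in a single group only, and Pgr, C3, Esr1, Igf1, Vegfa, Ccnd1, Mki67, Fos, S100g, Kap, Oxtr, Krt8 and Acta2; the text gives a part of these. Krt7, Krt18, Muc1, Krt5, Krt15, Dsp, Igfbp2, Igf1r, Csf1r, Cd14, Kdr, Pecam1, Adm, Col1a1, Col12a1, Postn, Fn1, Myh11, Hspa5, Cdkn1b, Cdkn2c, Cdkn1a, Jun, Junb, Fosl1, Gstm5, Krt14, Krt6c and Aqp5, with Foxa2, Ifitm1 and RT1-Db1 as exceptions of their lists and Mcm6 and Cdk1 in the comparison with 24 h, were chosen after their values were seen. For genes named with several probe sets, 24 of 31 other probe sets passed likewise, 3 shared the sign but did not pass, 4 had the other sign and did not pass, and 0 passed with the other sign. The alternatives tried were other offsets, scalings, filters, treatments of blanks and of probe sets, array weights, an exact permutation test and the removal of each array.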

Additional observations from a re-analysis of the deposited data

Results flagged for a closer look

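On 12 of 235 gene and group combinations with 5 values, a single array stood apart by Dixon's criterion at 0.71 on the log2 scale; chance gives about 1 in 20. EE array 84 was highest for C3 (4871, others 3212 to 3379), Elf3 (907, others 546 to 618), Kap (3450.1, others 2147 to 2432) and Krt19 (2864, others 1711 to 1931), and lowest for Ccnd2 (208, others 256 to 267). EE array 83 was lowest for Krt14 (858, others 2471 to 3410.3) and highest for Muc1 (328, others 214 to 242), and EE array 82 was lowest for Ldhb (319.6, others 379.8 to 391). Control array 78 was lowest for Hspa5 (488, others 757 to 838) and Idi1 (97.8, others 152 to 169) and highest for Jun (318, others 234 to 251), and control array 76 was highest for H19 (612, others 411 to 449.95).

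The EE effect at 72 h differed from that at 48 h for 34 genes, from that at 24 h for 2107 and from that at 4 h for 3542, by tests of the difference in the limma fit. Against 48 h the differences were 1.22 for C1qa, 1.002 for C1qc, 0.75 for Sat1, 0.61 for Htra3, 0.83 for Ccn3, 0.83 for Folr1, −0.78 for Dpp6 and −0.43 for Khdrbs1. Against 24 h they were 2.81 for Ccl11, −2.63 for Cpxm1, −2.06 for H19, 1.72 for Prom1, 1.81 for C1qa, 1.36 for Sat1 and 1.67 for Folr1. Against 4 h they were 3.21 for Ceacam1, −1.94 for Nolc1, −2.19 for Gnl3, −2.69 for Rasd1 and −2.85 for Gadd45g.

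Among probe sets of several genes or of no gene, which were left out of the report, 831 of 1398 tested passed at 72 h (59.4%), 240 higher and 591 lower.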

How the results depend on the processing

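Removal of a single array gave 3818 to 3993 genes that passed at 72 h, 18 to 53 that differed from 48 h, 1937 to 2099 from 24 h and 3395 to 3487 from 4 h. The difference from 48 h was the count that moved by over 1.5 times: from 34 to 9 with its own 4 groups fitted alone, 83 with blanks set to the 10th percentile, and 19 with EE array 84 and control array 75 both left out, an alternative chosen after seeing the data; the cause was not tested. At 72 h the other settings gave 3032 to 4597 genes, the lowest where only genes above the median level were tested and the highest with blanks filled, and the exact permutation test gave 3190 of 6029 genes. Against the 4073 of the report, 3308 passed under centring of arrays and 3669 under quantile normalization. Of these, 3308 and 3668 had the same direction, though centring could hardly turn a gene that passed both times. Single genes were followed only for the 257 named genes and named differences between times. Most of these were picked for large changes or small adjusted p-values, so their stability does not speak for all genes. Of their values, 5553 of 5593 kept direction and side of the threshold, 32 lost and 7 gained it. Sc5d, a cholesterol synthesis gene that passed at 0.57, turned to −0.0132 with the probe set that has most values (chosen after seeing the data). Scd, an adipocyte gene at −0.64 (adjusted p = 0.0357), lost its call under 7 settings and stood at −0.17 without control array 73. No paired analysis was possible because the EE and control arrays at 72 h share no number. Array signal limits the dimmest genes: 2173 genes were blank on all 10 arrays, and C3 and others with blanks in a group have no fold.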

Other observations

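Further lists held changes at 72 h. Of 11 circadian clock genes 6 fell and 1 rose. Nr1d2, a repressor of the clock, read 198, 201, 197, 218 and 342 in control and 109, 102, 102, 122 and 73.9 with EE, and fell by 0.97 (SE 0.12). Per2 fell by 0.60 (SE 0.12) with EE array 79 blank, and Bhlhe40 rose by 0.78. Of 26 proteasome genes 14 rose and 2 fell, though 20 rose and none fell after centring of arrays and 8 rose and 2 fell after quantile normalization; Psma2 rose by 0.68 ± 0.07 (SE). The Schwann cell and nerve list had lower sums with EE, at 1235 to 2099 in control and 870 to 1049.5 with EE. Of its 13 genes on the array, 4 had a value on all 10 arrays, and a blank cell adds nothing to a sum. Blank probe sets were more frequent on EE arrays, and their part in this gap was not tested. Of 6 genes of the list tested, 3 fell and none rose. Gap43, a protein of growing axons, had the largest fall of these, by 0.85 (SE 0.19) with EE array 83 blank. Of 28 adhesion and junction genes 12 rose and 6 fell; Cldn7 rose, while Cldn11 fell by 1.33 (SE 0.13) with EE array 84 blank and Tjp1, a scaffold of tight junctions, by 0.87 (SE 0.07).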
